A study of Homo sapiens with 8 samples.

Results

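RNA sequencing measured the response of THP-1 cells to 72 h of DDP38003, a compound that blocks the demethylase LSD1, the product of KDM1A. THP-1 is a monocytic acute myeloid leukemia (AML) line with a KMT2A fusion, and the study calls it resistant to LSD1 inhibition. The comparison set 1 library of THP-1 cells given 0.5 µM of the inhibitor for 72 h (the LSD1i library) against 1 library of THP-1 cells given vehicle for 72 h. These were chosen by line, agent and time in the labels, and they make 2 of the 8 libraries of the study. The other libraries were LSD1i and vehicle THP-1 cells at 24 h, and LSD1i and vehicle cells at 6 and 72 h of KASUMI-1, an AML line with the RUNX1::RUNX1T1 fusion that the study calls sensitive. The study set these times by an effect on the kinase mTOR that followed LSD1 inhibition: they were its first sign and the last time checked in each line. All cells grew in T175 flasks, and neither genotype nor any agent other than the inhibitor and its vehicle is given. Every group held 1 library of 1 line, and nothing in the labels shows whether flasks were separate. P-values therefore measure only the spread between these libraries, which may be technical and includes any change of the response with time.

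LSD1 removes methyl groups from lysine 4 of histone H3, a mark of active enhancers and promoters. In blood cells it works inside the CoREST complex with histone deacetylases and is carried to DNA by the repressors GFI1 and GFI1B, which silence genes of later myeloid cells. Blocking it in myeloid leukemia is known for raising monocyte and macrophage genes such as CD86, CD11b (gene ITGAM) and lysozyme.

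KDM1A was transcribed in every THP-1 library. Its level, in counts scaled to library size (CPM), was 93.9 CPM in the LSD1i library and 112 CPM in the vehicle library at 72 h, and 114 with LSD1i and 107 CPM with vehicle at 24 h. A level of the target gene checks no label here, because the agent acts on the protein. The 72 h libraries held 35131884 (LSD1i) and 38199393 (vehicle) counted reads, and the 8 libraries held 23722972 to 45970766. The myeloid markers SPI1, CD33, HOXA9 and TYROBP were present in both 72 h libraries, with SPI1 at 134 CPM with LSD1i and 139 CPM with vehicle. The THP-1 marker MEIS1 had 1 read in each. The 5 KASUMI-1 markers summed to 4.26 CPM with LSD1i and 18.2 CPM with vehicle, of which KIT gave 1.82 with LSD1i and 14.9 CPM with vehicle, and no marker of the list was at 0 reads in either. The 5 erythroid markers had 0.0284 CPM in sum with LSD1i and 0 with vehicle. Summed levels were 1.67 with LSD1i and 2.92 CPM with vehicle for the 4 B cell markers, 0.539 with LSD1i and 0.435 CPM with vehicle for the 4 T cell markers and 24.4 with LSD1i and 23.2 CPM with vehicle for the 4 NK cell markers. Small differences moved with transcript length: the median log2 ratio of LSD1i to vehicle was 0.14 over the 1142 genes of shortest exon length and −0.13 over the 1139 longest. A ribosomal RNA name, SSU_rRNA_5, also differed, with 535 CPM with LSD1i and 253 CPM with vehicle. The part of either in the small ratios given here was not tested. In bulk RNA a change in the share of cells of a kind and a change of RNA per cell cannot be told apart.

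After 72 h of LSD1 inhibition 358 of 11391 genes were at least 2-fold higher than in vehicle, which is 3.14%, and 164 were at least 2-fold lower, which is 1.44%. Genes entered at a mean of 2 CPM or more in the pair. A gene was counted when its ratio was 2-fold or more and its 95% counting interval left out equality. The ratio is that of CPM scaled by edgeR's TMM method with a prior count of 2, written on the log2 scale, where 1 is 2-fold. The larger ratios were mostly upward: 103 genes were at least 4-fold higher against 17 lower, 44 against 2 at 8-fold, and 21 against 1 at 16-fold. The median of all genes was −0.02 and the middle of the distribution ran between −0.23 and 0.19. Scaling by total counts moved this median by −0.11 and gave 304 higher and 233 lower genes. As a measure of how far untreated libraries lay apart, the 72 h vehicle library had 59 genes at least 2-fold higher (0.523% of 11289) and 33 lower (0.292%) than the 24 h vehicle library. Of the genes apart at 72 h, 31 of the 358 higher and 8 of the 164 lower were also 2-fold apart between the vehicle libraries. The 72 h vehicle library is in both comparisons, so an unusual value there can count in each. The genes nearest the threshold were GPR18 (1.00149) and PUDP (1.00585) inside and CTTNBP2NL (0.999604) and SYNE1 (0.998359) outside. On the lower side GPT2 (−1.00384) and RTN4R (−1.00405) lay inside and AGT (−0.998831) and CKB (−0.997504) outside.

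**Figure D1:**
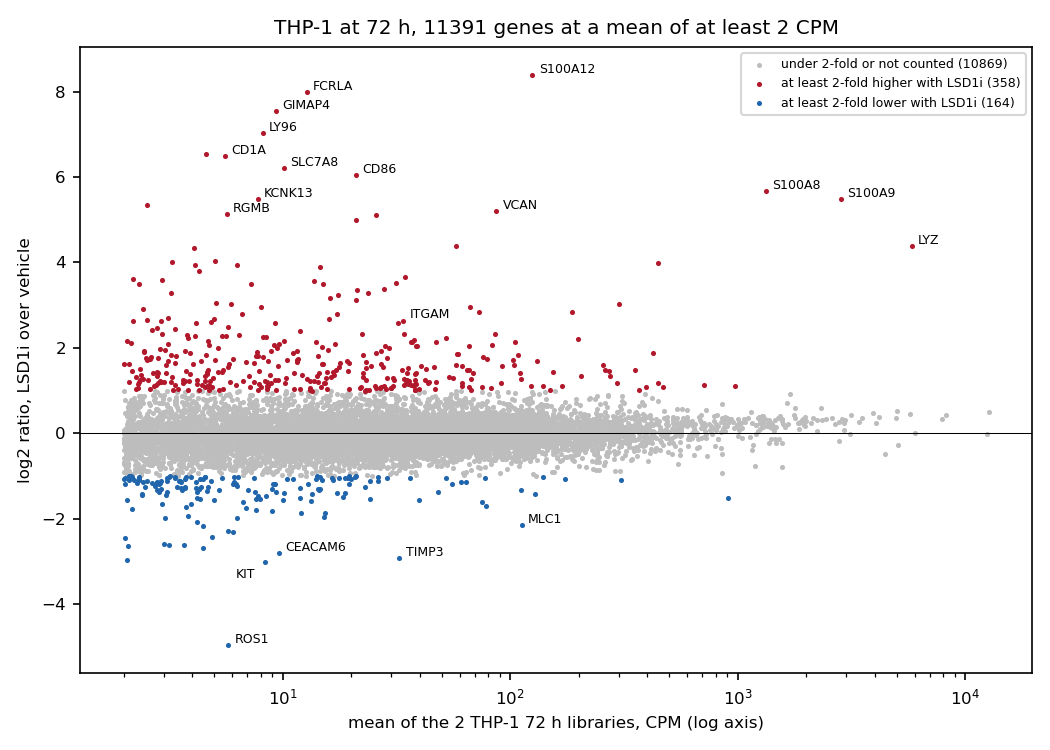
Log2 ratio of LSD1i to vehicle in THP-1 cells at 72 h (vertical) against the mean CPM of the pair (horizontal, log axis) for 11391 genes. Coloured points are the 358 genes at least 2-fold higher and the 164 at least 2-fold lower, and the higher genes reach further from 0 than the lower ones.

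With 1 library on each side the 72 h ratio has no replicate check. The repeat of the treatment in this line is the 24 h pair, and edgeR's quasi-likelihood F-test was fitted over both THP-1 pairs, with a term for each pair and the Benjamini-Hochberg adjustment over 16060 genes. It called 1046 genes as risen (6.51%) and 457 as fallen (2.85%). The words rose and fell are kept for genes that passed it, adjusted p-values come from it unless another test is named, and values after ± are approximate standard errors. Of the 358 genes higher at 72 h 346 (96.6%) rose in that test, and of the 164 lower genes 128 (78.0%) fell. The test includes the 72 h libraries, so it is a summary of both pairs rather than an independent repeat. Its spread is the difference in response between the times of each line, so a change with time counts as spread.

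Genes of maturing monocytes and macrophages were higher: 16 of the 34 listed genes at 2 CPM or more were at least 2-fold higher and none lower, and the list's median log2 ratio was 0.96, against −0.02 over all genes. The 16 are 47.1% of the 34, against 3.14% of all genes. Over both pairs 28 of 49 rose and none fell. The alarmin S100A12, a calcium-binding protein released by monocytes and neutrophils (NCBI36 chr1:151612805-151614699, minus strand), had 250 CPM with LSD1i and 0.700 CPM with vehicle at 72 h. At 24 h it had 56.3 CPM with LSD1i and 3.89 CPM with vehicle. Both LSD1i libraries lay far above both vehicle libraries, and the vehicle library at 72 h was the lowest of the 4. Its reads at 72 h numbered 8804 with LSD1i and 29 with vehicle, a ratio of 357 (95% counting interval from 248 to 533). That ratio, like each one given below beside numbers of reads, is of scaled reads with no prior count added. S100A12 rose by 5.70 ± 0.60 on the log2 scale over both pairs (adjusted p = 3.26e-06, edgeR).

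S100A8 and S100A9, whose proteins pair as calprotectin, were higher as well. S100A8 (chr1:151629132-151630173, minus strand) had 2620 CPM with LSD1i and 51.3 CPM with vehicle at 72 h, and 688 with LSD1i and 131 CPM with vehicle at 24 h. S100A9 (chr1:151596954-151600126, plus strand) had 5575 CPM with LSD1i and 124 CPM with vehicle at 72 h, and 1332 with LSD1i and 260 CPM with vehicle at 24 h. The LSD1i libraries did not overlap the vehicle libraries for either gene, and the 72 h LSD1i library was the highest. The 72 h log2 ratios were 5.67 (interval 5.61 to 5.74) for S100A8 and 5.49 (5.45 to 5.53) for S100A9. Over both pairs S100A8 rose by 4.03 ± 0.50 (adjusted p = 2e-05, edgeR) and S100A9 by 3.93 ± 0.48 (adjusted p = 1.78e-05, edgeR). The vehicle level of all 3 was lower at 72 h than at 24 h, with log2 ratios between the vehicle libraries of −2.39 for S100A12, −1.35 for S100A8 and −1.06 for S100A9, so the 72 h ratios combine a higher LSD1i level with a lower vehicle level.

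LYZ, which encodes the bacterial wall enzyme lysozyme (chr12:68028401-68034280, plus strand), had 11138 CPM with LSD1i and 536 CPM with vehicle at 72 h, and 4906 with LSD1i and 896 CPM with vehicle at 24 h. The LSD1i libraries were again apart from the vehicle libraries at both times. The 72 h log2 ratio was 4.38 (4.36 to 4.40) and the rise over both pairs 3.42 ± 0.36 (adjusted p = 3.04e-06, edgeR). At 72 h LYZ took 1.12% of counted reads with LSD1i and 0.0581% with vehicle, and LYZ, S100A8 and S100A9 together took 1.94% with LSD1i and 0.0772% with vehicle. VCAN, the matrix proteoglycan versican that marks classical monocytes, had 169 CPM with LSD1i and 4.52 CPM with vehicle at 72 h, and 48.4 with LSD1i and 5.19 CPM with vehicle at 24 h. It was high in both LSD1i libraries, more so at 72 h, and it rose by 4.22 ± 0.31 (adjusted p = 3.46e-08, edgeR).

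ITGAM, the CD11b chain of the complement receptor and integrin Mac-1, had 58.5 CPM with LSD1i and 9.34 CPM with vehicle at 72 h and 66.1 with LSD1i and 9.38 CPM with vehicle at 24 h. Its levels were close at the 2 times within each agent, and it rose by 2.74 ± 0.16 (adjusted p = 1.7e-09, edgeR). CD14, the co-receptor for bacterial lipopolysaccharide, had 3.83 CPM with LSD1i and 0.58 CPM with vehicle at 72 h and rose by 2.40 ± 0.30 (adjusted p = 3.35e-05, edgeR). LY96, the MD-2 protein that binds lipopolysaccharide beside TLR4, had 572 reads with LSD1i and 3 with vehicle at 72 h, and 785 with LSD1i and 20 with vehicle at 24 h. The 72 h ratio was 224, and its counting interval was wide, from 76.3 to 1090, since the vehicle library held so few reads, and LY96 rose by 6.07 ± 0.34 (adjusted p = 1.44e-09, edgeR). CSF1R, the macrophage growth factor receptor, had 75.9 CPM with LSD1i and 39.7 CPM with vehicle at 72 h, a log2 ratio of 0.93 that missed the 2-fold mark, though it rose by 1.14 ± 0.14 over both pairs (adjusted p = 1.99e-05, edgeR).

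**Figure D2:**
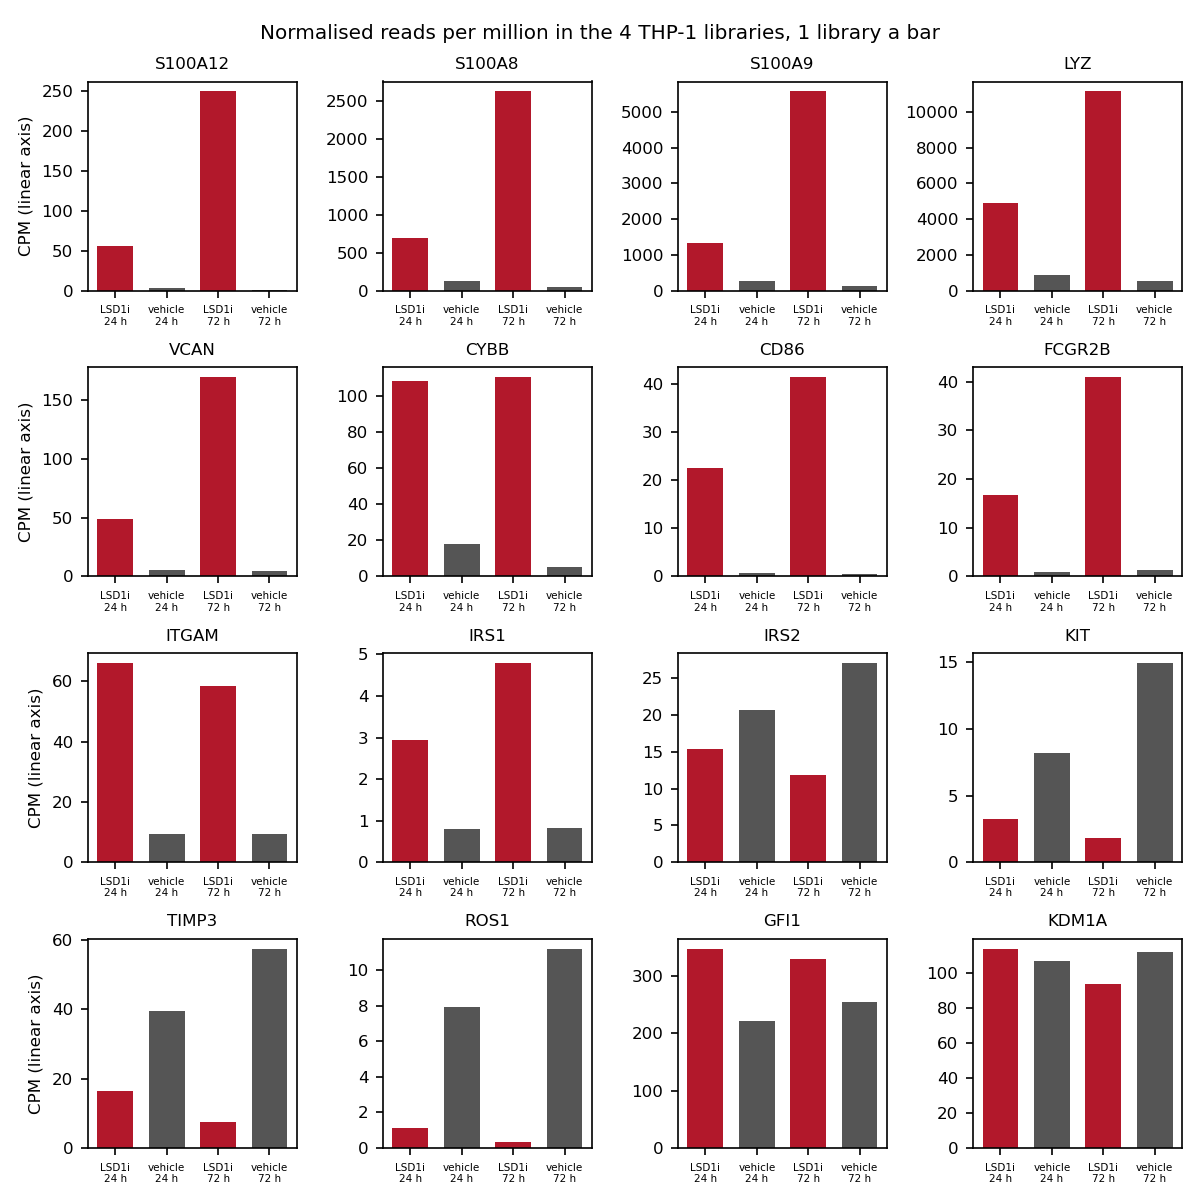
CPM of 16 genes in the 4 THP-1 libraries, in the order LSD1i and vehicle at 24 h, then LSD1i and vehicle at 72 h. Each bar is 1 library and each panel has its own axis from 0. S100A12, S100A8, S100A9, LYZ and VCAN are highest in the 72 h LSD1i library, ITGAM is alike at both times, and KIT, TIMP3 and ROS1 are lowest in an LSD1i library.

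The upstream sequences of 6 of the genes at the ends of the distribution are printed to show what the promoters of the response hold. Each is the 250 bases before the RefSeq transcription start on GRCh38.p14, written 5′ to 3′ on the gene's strand. Capitals mark 4 motifs searched on both strands, with overlaps between motifs allowed. The searched letters were GAGGAAG (core of PU.1, the monocyte regulator encoded by SPI1), AAATCAC (core of GFI1), TTGCNNAA (C/EBP) and GAAA repeated after any 2 bases (interferon response element). S100A8 was read at chr1:153391189-153391438 (minus strand), S100A9 at chr1:153357604-153357853 (plus), S100A12 at chr1:153375622-153375871 (minus), CD86 at chr3:122055112-122055361 (plus), GIMAP4 at chr7:150567140-150567389 (plus) and ROS1, which fell, at chr6:117425943-117426192 (minus).
S100A8: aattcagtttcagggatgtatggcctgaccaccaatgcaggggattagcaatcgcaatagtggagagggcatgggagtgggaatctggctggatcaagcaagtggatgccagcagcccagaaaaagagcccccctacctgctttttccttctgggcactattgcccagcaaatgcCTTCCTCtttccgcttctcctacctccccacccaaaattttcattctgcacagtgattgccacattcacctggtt
S100A9: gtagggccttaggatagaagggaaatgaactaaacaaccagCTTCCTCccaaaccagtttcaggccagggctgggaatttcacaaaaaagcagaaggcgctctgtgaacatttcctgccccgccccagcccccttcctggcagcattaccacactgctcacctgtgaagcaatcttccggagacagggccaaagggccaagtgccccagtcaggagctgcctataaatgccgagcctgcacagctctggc
S100A12: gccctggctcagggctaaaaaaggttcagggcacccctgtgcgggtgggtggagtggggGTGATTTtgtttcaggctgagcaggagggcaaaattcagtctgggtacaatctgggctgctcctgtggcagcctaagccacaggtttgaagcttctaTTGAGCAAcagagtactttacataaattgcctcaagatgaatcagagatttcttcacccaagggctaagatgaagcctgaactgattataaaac
CD86: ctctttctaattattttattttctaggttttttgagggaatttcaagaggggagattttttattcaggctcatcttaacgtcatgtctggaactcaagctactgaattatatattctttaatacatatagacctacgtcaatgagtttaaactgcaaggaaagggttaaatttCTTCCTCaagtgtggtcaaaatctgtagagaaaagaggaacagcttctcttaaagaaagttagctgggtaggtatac
GIMAP4: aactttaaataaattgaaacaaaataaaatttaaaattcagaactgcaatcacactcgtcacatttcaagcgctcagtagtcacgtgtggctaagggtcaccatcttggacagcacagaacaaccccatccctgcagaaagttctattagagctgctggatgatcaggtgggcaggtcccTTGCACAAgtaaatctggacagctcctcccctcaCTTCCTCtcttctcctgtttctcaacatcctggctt
ROS1: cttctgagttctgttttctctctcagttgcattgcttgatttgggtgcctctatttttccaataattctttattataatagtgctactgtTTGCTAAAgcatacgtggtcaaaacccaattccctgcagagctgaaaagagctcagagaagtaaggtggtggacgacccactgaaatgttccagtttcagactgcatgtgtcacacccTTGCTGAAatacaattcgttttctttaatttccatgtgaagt
The PU.1 core began 75 bases before the start of S100A8, 209 before S100A9, 77 before CD86 and 36 before GIMAP4. S100A12 held the GFI1 core 191 bases and a C/EBP motif 94 bases before its start, GIMAP4 a C/EBP motif at 70, and ROS1 C/EBP motifs at 160 and 42. The promoters of KIT and TIMP3, which fell, held none of the 4. Of the higher genes with a promoter entry 49 of 265 (18.5%) held the PU.1 core, of the lower genes 21 of 130 (16.2%), of the 8852 promoters of genes at 2 CPM or more 12.2%, and of all 27305 promoters 11.05%. The GFI1 core was in 5 of the higher (1.89%), in 4 of the lower (3.08%), in 1.58% of those at 2 CPM or more and in 2.67% of all. The C/EBP letters were in 24 of the higher (9.06%), in 8 of the lower (6.15%), in 6.04% of those at 2 CPM or more and in 9.13% of all. The interferon element was in 14 of the higher (5.28%), in 4 of the lower (3.08%), in 2.27% of those at 2 CPM or more and in 3.07% of all. A match of letters describes the window and shows no binding.

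Among Fc, pattern and scavenger receptors, with which phagocytes sense antibody and microbes, 9 of 18 were at least 2-fold higher and 1 lower, with a median log2 ratio of 1.11. Those are 50% and 5.56%, against 3.14% and 1.44% of all genes. Over both pairs 17 of 36 rose and 1 fell. FCRLA, an Fc receptor-like protein known from B cells, had 897 reads with LSD1i and 2 with vehicle at 72 h, and 431 with LSD1i and 1 with vehicle at 24 h. Its 72 h ratio was 527 (interval from 145 to 4359), and it rose by 8.85 ± 0.44 (adjusted p = 2.35e-10, edgeR). FCGR2B, the inhibitory Fc gamma receptor, had 40.9 CPM with LSD1i and 1.23 CPM with vehicle at 72 h, 16.7 with LSD1i and 0.936 CPM with vehicle at 24 h, and rose by 4.64 ± 0.31 (adjusted p = 9.67e-09, edgeR). FCGR2B has near-identical neighbours, and reads that fit several places were not counted, so its level may be too low. CLEC5A, a C-type lectin that pairs with DAP12, had 5.87 CPM with LSD1i and 0.555 CPM with vehicle at 72 h. CLEC12A, an inhibitory lectin of myeloid cells, had 37.1 CPM with LSD1i and 7.36 CPM with vehicle at 72 h and 20.9 with LSD1i and 10.9 CPM with vehicle at 24 h, and rose by 1.64 ± 0.25. That call ended without the 72 h pair, which left 1 THP-1 library per agent, at a value of 0.93. TREM2, a lipid-sensing receptor of tissue macrophages, was the lower member and is named after its values were seen. It had 37.7 CPM with LSD1i and 83.2 CPM with vehicle at 72 h and fell by 0.77 ± 0.16 (adjusted p = 0.004, edgeR). Levels of TLR4, the receptor that LY96 serves, were 38.8 with LSD1i and 27.3 CPM with vehicle and did not pass the test (adjusted p = 0.494, edgeR).

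In antigen presentation 7 of 25 genes were at least 2-fold higher and none lower, with a median of 0.39, and 14 of 35 rose over both pairs. The 7 are 28% of the list, against 3.14% of all genes. CD86, the co-stimulatory ligand for T cells (chr3:123256911-123322672, plus strand), had 41.5 CPM with LSD1i and 0.58 CPM with vehicle at 72 h, and 22.6 with LSD1i and 0.723 CPM with vehicle at 24 h. Both vehicle libraries were near the bottom of the scale and both LSD1i libraries well above. The 72 h log2 ratio was 6.04 (5.58 to 6.81) and CD86 rose by 5.55 ± 0.25 (adjusted p = 8.07e-11, edgeR). CD1A and CD1C present lipid antigens on dendritic cells. CD1A had 391 reads with LSD1i and 3 with vehicle at 72 h, a ratio of 153 (52.0 to 746), and 320 with LSD1i and 6 with vehicle at 24 h. CD1C had 323 reads with LSD1i and 2 with vehicle at 72 h, a ratio of 190 (52.1 to 1574), and 219 with LSD1i and 12 with vehicle at 24 h. CD1A rose by 6.43 ± 0.37 and CD1C by 5.39 ± 0.44 (adjusted p = 4.17e-09 and 2.66e-07, edgeR).

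HLA-DRA, the constant chain of HLA-DR, had 14.8 CPM with LSD1i and 3.48 CPM with vehicle at 72 h and 8.7 with LSD1i and 5.34 CPM with vehicle at 24 h. It rose by 1.38 ± 0.26 (adjusted p = 0.00133, edgeR), but by 0.69 without the 72 h pair (adjusted p = 0.379, edgeR), and DESeq2 gave an adjusted p of 0.145. HLA-DMA, which loads peptide on class II, had 12.8 CPM with LSD1i and 3.65 CPM with vehicle at 72 h and 8.72 with LSD1i and 3.7 CPM with vehicle at 24 h. Its rise of 1.53 was 1.22 without the 72 h pair (adjusted p = 0.0516, edgeR). The class II partners CD74 and HLA-DRB1 stood just under 2-fold at 72 h, with log2 ratios of 0.95 and 0.97. Gene models of HLA genes also lie on other haplotypes, so their counts may be too low. IFI30, a lysosomal thiol reductase that unfolds antigens, had 64.1 CPM with LSD1i and 5 CPM with vehicle at 72 h and 100 with LSD1i and 26.4 CPM with vehicle at 24 h, so that its level was lower at 72 h under both agents. It rose by 2.74 ± 0.27, and the log2 ratio between the vehicle libraries was −2.39.

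Of the phagocyte oxidase and phagocytosis list 1 of 25 was at least 2-fold higher and 1 lower, and 5 of 27 rose and none fell over both pairs. Each call at 72 h is 4% of the list, against 3.14% of all genes higher and 1.44% lower. CYBB, the catalytic gp91phox subunit of the oxidase, had 110 CPM with LSD1i and 5.22 CPM with vehicle at 72 h, and 108 with LSD1i and 17.7 CPM with vehicle at 24 h. The LSD1i libraries were alike and the 72 h vehicle library was the low one. CYBB rose by 3.45 ± 0.28 (adjusted p = 1.14e-07, edgeR). NCF1, a cytosolic subunit, had 6.21 CPM with LSD1i and 4.13 CPM with vehicle at 72 h and 12.02 with LSD1i and 4.255 CPM with vehicle at 24 h, and rose by 1.07 ± 0.25 (adjusted p = 0.00772, edgeR). It has near-identical pseudogenes, so its counts are uncertain. CYBA and NCF4, further oxidase subunits, had log2 ratios short of 2-fold at 72 h, with 367 CPM with LSD1i and 354 CPM with vehicle for CYBA, and 171 with LSD1i and 160 CPM with vehicle for NCF4. AXL, a receptor that clears dying cells, had 2.21 CPM with LSD1i and 4.95 CPM with vehicle at 72 h but 9.28 with LSD1i and 4.72 CPM with vehicle at 24 h, opposite directions that gave a value of 0.02 over both pairs (adjusted p = 0.992, edgeR).

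Lysosomal genes were called upward in 6 of 47 cases (12.8%, against 3.14% of all genes) and downward in none. Their median log2 ratio was 0.08, and 12 of 51 rose over both pairs. Among the 6 were the cathepsins CTSH (121 CPM with LSD1i and 36.53 CPM with vehicle at 72 h), CTSB (384 with LSD1i and 127 CPM with vehicle), CTSZ (392 with LSD1i and 154 CPM with vehicle) and CTSS (493 with LSD1i and 242 CPM with vehicle), and the sugar-cleaving enzyme FUCA1 (32.9 with LSD1i and 12.3 CPM with vehicle). These genes all rose over both pairs. Of 32 autophagy genes 1 was at least 2-fold higher and 1 lower, 3.12% each, against 3.14% and 1.44% of all genes. In the autophagy list the ATG8-family member GABARAP had 168 CPM with LSD1i and 47.1 CPM with vehicle at 72 h and 144 with LSD1i and 40 CPM with vehicle at 24 h, and rose by 1.85 ± 0.13 (adjusted p = 2.01e-08, edgeR). TP53INP2, which takes part in forming autophagosomes, was the other called member of 32, with 2.55 CPM with LSD1i and 6.21 CPM with vehicle and no pass over both pairs (adjusted p = 0.0988, edgeR). It passed when either KASUMI-1 pair was left out of the shared fit, at −0.86 each time (adjusted p = 0.000882 with the 6 h pair left out and 0.000963 with the 72 h pair left out, edgeR).

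Of the adhesion molecules 5 of 23 were at least 2-fold higher and 1 lower, and 10 of 32 rose and 1 fell over both pairs. The calls at 72 h are 21.7% and 4.35%, against 3.14% and 1.44% of all genes. ICAM1, a ligand of Mac-1, had 4.11 CPM with LSD1i and 1.16 CPM with vehicle at 72 h, and its call over both pairs ended without pair terms (2.23, adjusted p = 0.0667, edgeR). ITGA6, a laminin receptor chain, had 13.5 with LSD1i and 5.63 CPM with vehicle at 72 h but 50.9 with LSD1i and 20.9 CPM with vehicle at 24 h, and ICAM2 had 10.9 with LSD1i and 4.83 CPM with vehicle at 72 h. The call of ITGA6 over both pairs also ended without pair terms (1.28, adjusted p = 0.49, edgeR). ITGB7, a chain of the gut-homing integrin, had 21.1 CPM with LSD1i and 9.32 CPM with vehicle at 72 h, and its call ended without the 72 h pair (0.76, adjusted p = 0.151, edgeR). CEACAM6, an adhesion protein of neutrophils, was lower, with 2.38 CPM with LSD1i and 16.8 CPM with vehicle at 72 h and 4.53 with LSD1i and 13.1 CPM with vehicle at 24 h. Both LSD1i libraries lay below both vehicle libraries, and CEACAM6 fell by 2.12 ± 0.26 (adjusted p = 1.7e-05, edgeR).

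Lipid mediator and complement genes held 5 higher and 2 lower of 20, and 11 of 33 rose while 3 fell over both pairs. At 72 h the calls are 25% and 10%, against 3.14% and 1.44% of all genes. Both leukotriene enzymes rose: ALOX5, which makes leukotriene A4, had 4.85 CPM with LSD1i and 1.21 CPM with vehicle at 72 h, and LTA4H, which turns it into leukotriene B4, had 201 with LSD1i and 62.5 CPM with vehicle. Without pair terms the call of ALOX5 ended (1.89, adjusted p = 0.0864, edgeR). CFP, the complement stabilizer properdin, had 18.2 CPM with LSD1i and 4.78 CPM with vehicle at 72 h and also rose. CD59, which blocks the complement pore, had 30.2 with LSD1i and 14.2 CPM with vehicle, and its call ended without the 72 h pair (0.71, adjusted p = 0.127, edgeR). The call of C2, a complement protease, ended without either THP-1 pair (1.27 with the 24 h pair left out, adjusted p = 0.118, and 0.90 with the 72 h pair left out, adjusted p = 0.455, edgeR) and under DESeq2 (adjusted p = 0.213). C1S, a protease of the classical pathway, had 1.16 CPM with LSD1i and 7.73 CPM with vehicle at 72 h and 0.86 with LSD1i and 2.26 CPM with vehicle at 24 h. It fell by 2.10 ± 0.31 over both pairs, and by 1.40 without the 72 h pair, which was no longer called (adjusted p = 0.155, edgeR).

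Of 34 myeloid transcription factors 5 were at least 2-fold higher (14.7%, against 3.14% of all genes) and 1 lower, with a median of −0.04, and 9 of 41 rose and none fell over both pairs. SPI1 had a 72 h log2 ratio of −0.06 and did not pass over both pairs (adjusted p = 0.485, edgeR). CEBPA, a driver of granulocyte fate, had 263 CPM with LSD1i and 374 CPM with vehicle at 72 h but 343 with LSD1i and 297 CPM with vehicle at 24 h (adjusted p = 0.702, edgeR). CEBPB had 11 CPM with LSD1i and 11.9 CPM with vehicle, and the leukemic homeobox gene HOXA9 had 53.4 with LSD1i and 54.9 CPM with vehicle. The higher factors were MAF, MITF, BCL6, ID3 and KLF4. MAF, a factor of macrophages, had 4.34 CPM with LSD1i and 0.531 CPM with vehicle at 72 h, 2.4 with LSD1i and 0.468 CPM with vehicle at 24 h, and rose by 2.71 ± 0.32 (adjusted p = 1.83e-05, edgeR), while DESeq2 gave an adjusted p of 0.936. MITF, a regulator of lysosomal genes in macrophages and osteoclasts, had 10.7 with LSD1i and 2.15 CPM with vehicle at 72 h and rose by 1.96 ± 0.23, a call that ended without pair terms (adjusted p = 0.0509, edgeR). ID3, an inhibitor of helix-loop-helix factors, had 11.3 with LSD1i and 3.6 CPM with vehicle at 72 h and 21.2 with LSD1i and 3.02 CPM with vehicle at 24 h. KLF4, which drives monocyte maturation, had 22.2 CPM with LSD1i and 8.93 CPM with vehicle at 72 h and 31.5 with LSD1i and 8.51 CPM with vehicle at 24 h. BCL6, a repressor, had 7.75 with LSD1i and 2.32 CPM with vehicle at 72 h, and its call ended without that pair (1.43, adjusted p = 0.0505, edgeR). EGR1, the lower factor, had 1.7 CPM with LSD1i and 4.49 CPM with vehicle at 72 h but 5.28 with LSD1i and 4.49 CPM with vehicle at 24 h, and did not pass (adjusted p = 0.401, edgeR).

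No member of the LSD1 and corepressor list was 2-fold apart among 24, and 1 of 25 rose and 1 fell over both pairs. Of all genes 3.14% were higher and 1.44% lower at 72 h, and 6.51% rose and 2.85% fell over both pairs. GFI1 was the one that rose. It had 330 CPM with LSD1i and 254 CPM with vehicle at 72 h and 347 with LSD1i and 221 CPM with vehicle at 24 h, higher with LSD1i both times, and a value of 0.52 ± 0.13 (adjusted p = 0.0147, edgeR). The call ended without either THP-1 pair, at 0.37 with the 24 h pair left out (adjusted p = 0.451, edgeR) and 0.64 with the 72 h pair left out (adjusted p = 0.167, edgeR). GFI1B had 15 reads with LSD1i and 20 with vehicle at 72 h. ZMYM3, a zinc finger partner of the complex, had 27.3 CPM with LSD1i and 46.6 CPM with vehicle at 72 h and fell by 0.50 ± 0.14 (adjusted p = 0.0305, edgeR). KDM1A itself did not pass (−0.07 ± 0.13, adjusted p = 0.831, edgeR), nor did RCOR1, HDAC1 or HDAC2 reach 2-fold. Their levels at 72 h were 102 with LSD1i and 109 CPM with vehicle for RCOR1, 257 with LSD1i and 273 CPM with vehicle for HDAC1, and 309 with LSD1i and 360 CPM with vehicle for HDAC2.

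Cytokine and NF-kB target genes held 5 higher and 1 lower of 21. These shares are 23.8% and 4.76%, against 3.14% and 1.44% of all genes. CCL2, a monocyte attractant, had 6.21 CPM with LSD1i and 0.338 CPM with vehicle at 72 h and 22.4 with LSD1i and 1.96 CPM with vehicle at 24 h. IL1RN, which blocks interleukin 1, had 47 with LSD1i and 11.8 CPM with vehicle at 72 h, TNF had 5.34 with LSD1i and 1.47 CPM with vehicle, and IL1B had 4.11 with LSD1i and 1.5 CPM with vehicle. CCL2, IL1RN, TNF and IL1B rose over both pairs, and all but IL1RN stood lower in both 72 h libraries than in the 24 h library of the same agent. CCL23, another chemokine, had 6.64 CPM with LSD1i and 20 CPM with vehicle at 72 h, and its fall of 1.11 ± 0.20 was 0.69 in size without the 72 h pair (−0.69, adjusted p = 0.352, edgeR).

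Of 42 interferon response genes 6 were at least 2-fold higher (14.3%, against 3.14% of all genes) and none lower. Their median was 0.23, and 12 of 48 rose. TRIM22, an antiviral ubiquitin ligase, had 31.6 CPM with LSD1i and 3.28 CPM with vehicle at 72 h and 14.1 with LSD1i and 4 CPM with vehicle at 24 h. HERC5, which attaches ISG15, had 27.7 with LSD1i and 4.3 CPM with vehicle at 72 h, and OAS1, a sensor of viral RNA, had 15.1 with LSD1i and 3.77 CPM with vehicle. GBP1, a GTPase that acts on intracellular pathogens, had 176 reads with LSD1i and 3 with vehicle at 72 h, a ratio of 68.9 (23.2 to 338), and rose by 6.00 ± 0.41. The related GBP2 had 9.54 CPM with LSD1i and 0.531 CPM with vehicle at 72 h, and its call ended without that pair (2.05, adjusted p = 0.108, edgeR), as did that of IFIT5 (1.28, adjusted p = 0.113, edgeR). MX1, another antiviral GTPase of the program, was not higher and had 1.84 CPM with LSD1i and 2.34 CPM with vehicle.

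The GIMAP GTPases are best known from lymphocytes, and 1 member was called. GIMAP4 (chr7:149895391-149901973, plus strand) had 660 reads with LSD1i and 2 with vehicle at 72 h, a ratio of 388 (107 to 3209), and 664 with LSD1i and 7 with vehicle at 24 h. It rose by 7.33 ± 0.31 (adjusted p = 8.07e-11, edgeR). Its neighbour GIMAP6 had 32.7 CPM with LSD1i and 33.2 CPM with vehicle at 72 h. MS4A4A, a surface protein of macrophages listed with them, had 77.3 CPM with LSD1i and 17.5 CPM with vehicle at 72 h and rose by 1.90. These were the called members of 11, or 18.2%, against 3.14% of all genes higher. Outside the lists, the higher end of the ranking held SLC7A8, an exchanger of neutral amino acids, with 20 CPM with LSD1i and 0.217 CPM with vehicle at 72 h. It also held KCNK13, a potassium channel that had 15.3 CPM with LSD1i and 0.29 CPM with vehicle, and RGMB, a co-receptor for bone morphogenetic proteins that had 11.1 CPM with LSD1i and 0.266 CPM with vehicle. All 3 rose over both pairs, by 5.64 ± 0.34, 5.03 ± 0.27 and 5.41 ± 0.24.

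The study chose its times by mTOR, the kinase that couples growth signals to protein synthesis, so genes of that pathway were read as a group. Of 41 genes of the mTOR complexes and their regulators 1 was at least 2-fold higher and none lower. That is 2.44% higher, near the 3.14% of all genes. The median log2 ratio was 0.11, and 3 of 42 rose and 2 fell over both pairs, against 6.51% and 2.85% of all genes tested. The called member was DDIT4 (REDD1), an inhibitor of mTOR complex 1, with 32.2 CPM with LSD1i and 15.9 CPM with vehicle at 72 h and 20.6 with LSD1i and 8.19 CPM with vehicle at 24 h. DDIT4 was higher with LSD1i at both times and rose by 1.18 ± 0.22 (adjusted p = 0.00124, edgeR), but the call ended without the 24 h pair (1.02, adjusted p = 0.115, edgeR) and under DESeq2 (adjusted p = 0.131). MTOR had 61.6 CPM with LSD1i and 70 CPM with vehicle at 72 h (−0.11 over both pairs, adjusted p = 0.717, edgeR). TSC1, a brake on the pathway, had 33.8 with LSD1i and 34.6 CPM with vehicle, and RHEB, its activating GTPase, had 166 with LSD1i and 143 CPM with vehicle. The translation repressor EIF4EBP1 had 125 CPM with LSD1i and 83.4 CPM with vehicle and rose by 0.47 ± 0.13 (adjusted p = 0.0283, edgeR). SESN3, a sestrin that restrains the complex, fell by 0.48 (44.9 CPM with LSD1i, 59.2 CPM with vehicle at 72 h), and so did the nutrient GTPase RRAGD by 0.51 (26.4 with LSD1i and 41.2 CPM with vehicle).

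Adaptors that pass signals from the insulin receptor moved in opposite directions. IRS1 had 4.8 CPM with LSD1i and 0.821 CPM with vehicle at 72 h and 2.94 with LSD1i and 0.787 CPM with vehicle at 24 h. IRS2 had 11.9 CPM with LSD1i and 27 CPM with vehicle at 72 h and 15.4 with LSD1i and 20.6 CPM with vehicle at 24 h. The LSD1i libraries were the high ones for IRS1 and the low ones for IRS2. IRS1 rose by 2.23 ± 0.29 (adjusted p = 3.89e-05, edgeR) and IRS2 fell by 0.79 ± 0.18 (adjusted p = 0.00658, edgeR). Without the 72 h pair neither was called, at 1.88 for IRS1 (adjusted p = 0.0514, edgeR) and −0.44 for IRS2 (adjusted p = 0.637, edgeR). GAB2, a docking adaptor, had 54 with LSD1i and 22.6 CPM with vehicle at 72 h and rose. These were the called genes of 37 in the insulin, PI3K and AKT list, whose median was −0.11. The higher genes are 5.41% of it, against 3.14% of all genes, and the lower gene is 2.7%, against 1.44%.

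Genes that ERK signalling induces held 8 higher and 1 lower of 37, or 21.6% and 2.7%, against 3.14% and 1.44% of all genes. The median was −0.05, with 17 genes above 0 and 20 below, and 11 of 43 rose and 2 fell over both pairs. EGR1 was the lower one, with a 72 h log2 ratio of −1.37. ETV1 and ETV5, ETS factors downstream of ERK, had 16.6 CPM with LSD1i and 3.65 CPM with vehicle, and 28.5 with LSD1i and 10.4 CPM with vehicle, at 72 h. The inhibitors SPRED1 and SPRY4 had 3.41 with LSD1i and 0.724 CPM with vehicle, and 3.92 with LSD1i and 1.16 CPM with vehicle. All 4 rose over both pairs, and the call of ETV1 ended without pair terms (2.24, adjusted p = 0.0635, edgeR). DUSP4, a phosphatase of the kinases, had 6.92 CPM with LSD1i and 2.44 CPM with vehicle, and its call ended without the 72 h pair (0.83, adjusted p = 0.423, edgeR).

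ATF4 targets, which respond to amino acid stress, held 2 higher and 3 lower of 46, with 13 of 52 rising and 3 falling over both pairs. The calls at 72 h are 4.35% higher and 6.52% lower, against 3.14% and 1.44% of all genes. SLC7A11, the cystine importer, had 3.94 CPM with LSD1i and 14 CPM with vehicle at 72 h and 6.5 with LSD1i and 20.1 CPM with vehicle at 24 h. It was lower with LSD1i at both times and fell by 1.72 ± 0.18 (adjusted p = 3.73e-06, edgeR), a call that ended without pair terms (−1.70, adjusted p = 0.179, edgeR). VLDLR, a lipoprotein receptor, had 36.6 with LSD1i and 120 CPM with vehicle at 72 h and fell by 1.27. GPT2, an alanine-forming transaminase, had 14 with LSD1i and 28.1 CPM with vehicle, and its call ended without the 72 h pair (−0.50, adjusted p = 0.4, edgeR). VEGFA, a growth factor for vessels that is also on the hypoxia list, had 35.5 CPM with LSD1i and 11.2 CPM with vehicle and rose. Of 40 glycolysis and hypoxia genes 3 were higher: VEGFA, the hexokinase HK2 (49.5 with LSD1i and 20.6 CPM with vehicle at 72 h, 82.5 with LSD1i and 18.4 CPM with vehicle at 24 h) and the phosphofructokinase PFKM. They are 7.5% of that list, against 3.14% of all genes. The call of PFKM ended without either THP-1 pair (adjusted p = 0.144 with the 24 h pair left out and 0.295 with the 72 h pair left out, edgeR) and under DESeq2 (adjusted p = 0.0925).

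Receptors for blood growth factors and cytokines held 4 higher and 3 lower of 32. Those are 12.5% and 9.38%, against 3.14% and 1.44% of all genes. CSF2RA, the GM-CSF receptor alpha chain, had 50.1 CPM with LSD1i and 21.4 CPM with vehicle at 72 h, and TNFRSF10B, a death receptor for TRAIL, had 43.6 with LSD1i and 18.3 CPM with vehicle. IL10RA had 24.2 with LSD1i and 9.3 CPM with vehicle, and its call ended without the 72 h pair (1.08, adjusted p = 0.115, edgeR), as did that of TNFSF10, the TRAIL ligand itself (0.60, adjusted p = 0.39, edgeR), which had 34.8 with LSD1i and 16 CPM with vehicle. The 3 lower were the receptor kinases ROS1, KIT and AXL. SOCS2, a feedback inhibitor of cytokine receptors, had 0.993 CPM with LSD1i and 6.37 CPM with vehicle at 72 h and 2.02 with LSD1i and 6.47 CPM with vehicle at 24 h, and fell by 2.09 ± 0.25 (adjusted p = 1.4e-05, edgeR).

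ROS1 showed the largest ratio downward among genes at 5 CPM or more in the mean. This orphan receptor kinase (chr6:117716223-117853711, minus strand) had 0.312 CPM with LSD1i and 11.2 CPM with vehicle at 72 h, from 11 reads with LSD1i and 464 with vehicle. At 24 h it had 1.11 CPM with LSD1i and 7.94 CPM with vehicle. Both LSD1i libraries were low, and the vehicle library was higher at 72 h. The 72 h log2 ratio was −4.95 (−6.18 to −4.31), and ROS1 fell by 3.71 ± 0.37 (adjusted p = 2.54e-06, edgeR), though DESeq2 gave an adjusted p of 0.057. KIT, the stem cell factor receptor of progenitors (chr4:55218852-55301636, plus strand), had 1.82 CPM with LSD1i and 14.9 CPM with vehicle at 72 h and 3.24 with LSD1i and 8.17 CPM with vehicle at 24 h. It fell by 2.11 ± 0.26 (adjusted p = 1.78e-05, edgeR). TIMP3, an inhibitor of matrix metalloproteases, had 7.52 CPM with LSD1i and 57.5 CPM with vehicle at 72 h and 16.6 with LSD1i and 39.5 CPM with vehicle at 24 h. It fell by 2.05 ± 0.26 (adjusted p = 2.5e-05, edgeR). For KIT and TIMP3, as for ROS1, the 72 h LSD1i library was the lowest and the 72 h vehicle library the highest of the 4.

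Other genes at the lower end were of several kinds. LGALS12, a galectin of lipid droplets, had 1.99 CPM with LSD1i and 10.05 CPM with vehicle at 72 h, the cadherin DSG2 of desmosomes 1.93 with LSD1i and 9.54 CPM with vehicle, and MLC1, a membrane protein of astrocytes, 41.2 with LSD1i and 183 CPM with vehicle. VIT, a matrix protein, had 5.16 CPM with LSD1i and 18.8 CPM with vehicle, the septin SEPTIN5 had 6.56 with LSD1i and 24 CPM with vehicle, and the transglutaminase TGM4 had 2.5 with LSD1i and 10 CPM with vehicle. ADGRG5, an adhesion G protein-coupled receptor, had 6.13 CPM with LSD1i and 24.1 CPM with vehicle at 72 h and 10.4 with LSD1i and 16.9 CPM with vehicle at 24 h. All 7 fell over both pairs. The calls of DSG2, TGM4 and ADGRG5 ended without the 72 h pair, at −1.25 (adjusted p = 0.0998, edgeR), −1.01 (adjusted p = 0.249, edgeR) and −0.71 (adjusted p = 0.569, edgeR), and DESeq2 gave ADGRG5 an adjusted p of 0.855.

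Matrix proteins and proteases were among the few groups with more lower than higher members at 72 h, 6 against 2 of 21, with a median of −0.32. Those are 28.6% and 9.52%, against 1.44% and 3.14% of all genes. Over both pairs the list went the other way, with 7 of 33 risen and 4 fallen, and its median at 24 h was 0.16. VCAN and the protease ADAM28 (4.11 CPM with LSD1i and 0.29 CPM with vehicle at 72 h) were higher. TIMP3 and the mucin MUC19 (1.59 with LSD1i and 7.36 CPM with vehicle) fell over both pairs. COL18A1, which encodes a basement membrane collagen, had 5.14 CPM with LSD1i and 12.8 CPM with vehicle at 72 h and did not pass (adjusted p = 0.0667, edgeR). LAMA5, a laminin chain, had a 72 h log2 ratio of −1.29 and a call that ended without either THP-1 pair (adjusted p = 0.0578 with the 24 h pair left out and 0.812 with the 72 h pair left out, edgeR). COL18A1 was called when the THP-1 24 h pair was left out (−1.32, adjusted p = 0.0165, edgeR) or either KASUMI-1 pair (−0.69, adjusted p = 0.000725 and 0.000749, edgeR).

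Granule proteins of neutrophils and eosinophils had a median of −0.49, with 1 of 8 at least 2-fold lower (12.5%, against 1.44% of all genes) and none higher. Over both pairs 1 of 14 rose and 3 fell. The lower one was CTSG, the serine protease cathepsin G. It had 473 CPM with LSD1i and 1347 CPM with vehicle at 72 h and 482 with LSD1i and 1007 CPM with vehicle at 24 h, and fell by 1.28 ± 0.17 (adjusted p = 3.35e-05, edgeR). Among 20 stem and progenitor genes 2 were lower (10%, against 1.44% of all genes) and none higher. Their median was −0.22, and KIT was among the lower. CDK6, a progenitor cell cycle kinase, had 159 CPM with LSD1i and 272 CPM with vehicle and fell by 0.77 (adjusted p = 0.000632, edgeR), short of 2-fold at 72 h. MYC had 90.1 CPM with LSD1i and 130 CPM with vehicle at 72 h and 103 with LSD1i and 118 CPM with vehicle at 24 h, a 72 h log2 ratio of −0.53 (−0.59 to −0.46). It did not pass over both pairs (−0.35 ± 0.13, adjusted p = 0.116, edgeR). MYC passed when either KASUMI-1 pair was left out of the shared fit, at −0.35 each time (adjusted p = 0.0479 with the 6 h pair left out and 0.0412 with the 72 h pair left out, edgeR).

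Proliferation and housekeeping groups had almost no called members at 72 h, when 3.14% of all genes were higher and 1.44% lower. At those shares a list of 34 to 50 genes would hold few calls. None was 2-fold apart among 46 S phase genes (median −0.09), 48 G2 and mitosis genes (0.05), 50 ribosome biogenesis and MYC target genes (−0.05), 44 nuclear-encoded respiratory chain genes (0.12), 34 heat shock and unfolded protein response genes (−0.13) and 39 SREBP and LXR targets (−0.07). All 47 ribosomal protein genes lay above 0, with a median of 0.30, but none reached 2-fold and 1 rose over both pairs. They are short transcripts, and short transcripts as a whole stood above long ones in this pair, so the part of length in that value was not tested. Of 26 G1 regulators 1 was higher (3.85%, against 3.14% of all genes), the antiproliferative gene BTG1. It had 68.8 CPM with LSD1i and 23.5 CPM with vehicle at 72 h, and it rose. Among 25 genes of oxidative stress and metallothioneins the quinone reductase NQO1 (137 with LSD1i and 46.3 CPM with vehicle) and the peroxiredoxin PRDX1 (636 with LSD1i and 301 CPM with vehicle) were higher and rose, and SLC7A11 was lower. These calls are 8% higher and 4% lower, against 3.14% and 1.44% of all genes. The call of NQO1 ended without pair terms (1.47, adjusted p = 0.0901, edgeR).

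**Figure D3:**
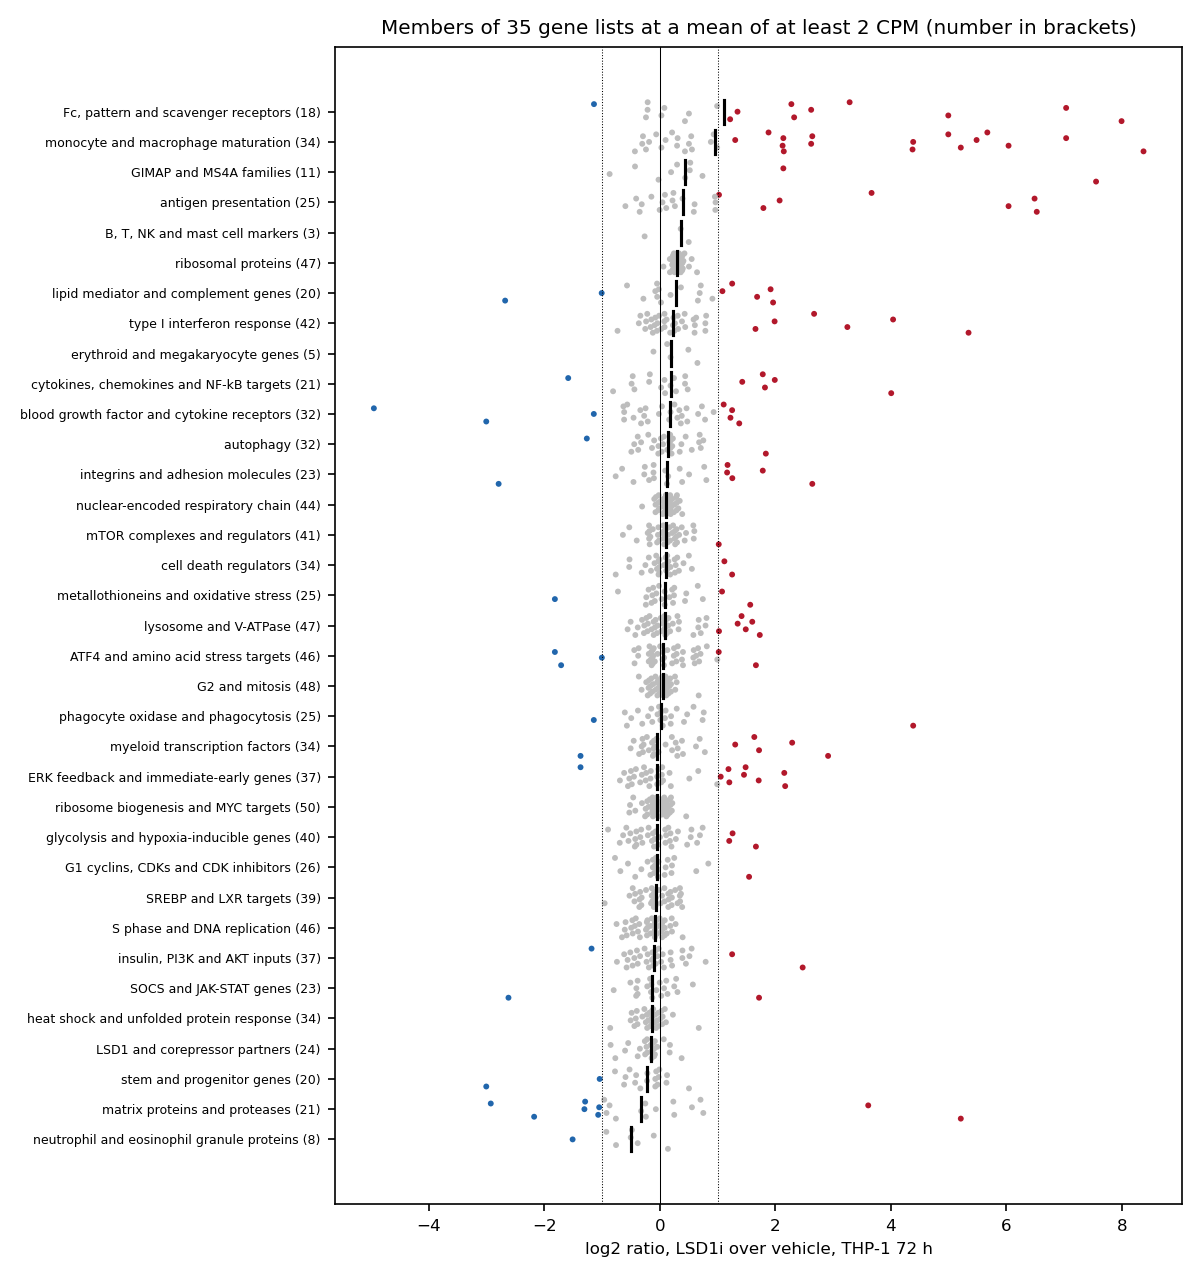
Log2 ratio of LSD1i to vehicle in THP-1 cells at 72 h for the members of 35 gene lists at 2 CPM or more. Each point is 1 gene, the bar is the list's median and dotted lines mark 2-fold. Monocyte genes and Fc and pattern receptors lie mostly right of 0, and the S phase, G2 and mitosis, and ribosomal protein lists stay within the dotted lines.

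The 24 h pair shares no library with the 72 h pair, and most genes apart at 72 h had the same direction at 24 h. At 24 h 315 genes were at least 2-fold higher (2.8% of 11267) and 47 lower (0.417%). Of the 358 genes higher at 72 h, 351 (98.0%) had the same direction at 24 h and 229 were also called there, which is 64.0% of the 72 h genes and 72.7% of the 24 h genes. Of the 164 lower genes, 155 (94.5%) had the same direction and 31 were also called, 18.9% of the 72 h genes and 66.0% of the 24 h genes. The median log2 ratio of the higher genes was 1.502 at 72 h, which chose them, and 1.33 at 24 h. That of the lower genes was −1.26 at 72 h and −0.67 at 24 h. Between the vehicle libraries, 72 h against 24 h, the median log2 ratio was −0.10 for the higher genes and 0.30 for the lower genes. The share of all genes with the same direction at both times is not given here. A name without a current symbol, AC010970.3-1, was the one called in opposite directions, with a log2 ratio of 2.57 at 72 h and −1.54 at 24 h.

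The difference between the 72 h and 24 h responses was itself tested with edgeR's quasi-likelihood test, in which the spread comes from the KASUMI-1 pairs with 1 residual degree of freedom. The prior degrees of freedom of that fit were estimated as infinite, so the moderated spread was pooled wholly over genes, and the p-values of single genes rest on that pooling. It called 18 of 16060 genes as higher at 72 h (0.112%) and 6 as lower (0.0374%), and 22 of these 24 were called at 72 h. Among those called higher, 6 were names without a current symbol, given here after their values were seen. They were SSU_rRNA_5, RNase_MRP, AC112777.7, AL163011.3, AC044839.16-1 and AC010970.3-1. Each was lower with LSD1i at 24 h and higher at 72 h, as AC112777.7 was with log2 ratios of −0.75 and 1.33. AC112777.7 and AC010970.3-1 were also called with RLE scaling and with DESeq2. The response of S100A12 was larger at 72 h by 4.64 ± 0.38 (adjusted p = 9.89e-31, edgeR), that of S100A8 by 3.30 ± 0.35 (adjusted p = 3.19e-17, edgeR) and that of S100A9 by 3.14 ± 0.40 (adjusted p = 3.08e-11, edgeR). VCAN was larger by 2.03 ± 0.32 (adjusted p = 8.36e-07, edgeR). S100A12, S100A8, S100A9 and VCAN were also called with RLE scaling and with DESeq2. CYBB (1.81 ± 0.31, adjusted p = 8.08e-06, edgeR), IFI30 (1.77 ± 0.32, adjusted p = 3.15e-05, edgeR) and TIMP3 (−1.66 ± 0.34, adjusted p = 0.00132, edgeR) were called with RLE scaling but not with DESeq2. For CYBB, IFI30 and the S100 genes the vehicle library was lower at 72 h, and for TIMP3 it was higher.

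Calls for LYZ, KIT, MLC1, CLEC12A, HLA-DRA, AXL and SLC2A4 ended under both RLE scaling and DESeq2. LYZ, for instance, had a difference of 1.94 ± 0.48 (adjusted p = 0.0358, edgeR), with an adjusted p of 0.518 under RLE scaling. SLC2A4, the insulin-responsive glucose transporter GLUT4, had 27.4 CPM with LSD1i and 1.79 CPM with vehicle at 72 h and 15.6 with LSD1i and 4.38 CPM with vehicle at 24 h, a difference of 2.12 ± 0.43 (adjusted p = 0.00104, edgeR). The other called genes with a symbol, chosen after their values were seen, were STS, MCUB, ID1 and MYBPH, whose calls also ended under RLE scaling. ID1, an inhibitor of differentiation factors, had 14.3 CPM with LSD1i and 11.8 CPM with vehicle at 72 h and 63.5 with LSD1i and 19.9 CPM with vehicle at 24 h. SLC15A3, a lysosomal peptide transporter, was among the lowest by difference of ratios, with 13.1 CPM with LSD1i and 5.46 CPM with vehicle at 72 h and 19.7 with LSD1i and 3.47 CPM with vehicle at 24 h, and was not called (adjusted p = 0.82, edgeR).

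**Figure D4:**
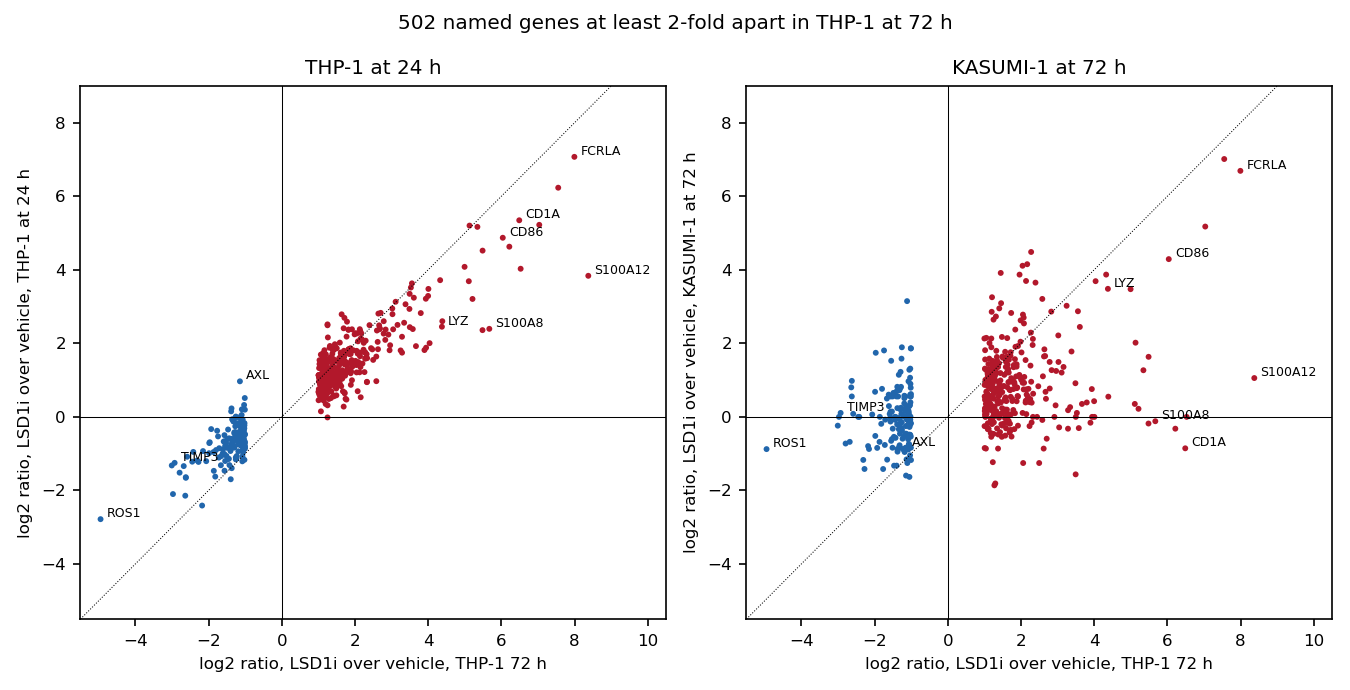
Log2 ratio of LSD1i to vehicle in the THP-1 72 h pair (horizontal) against the THP-1 24 h pair (one panel) and the KASUMI-1 72 h pair (the other), for the 502 called genes with a current symbol. Higher genes lie above 0 in most cases at 24 h, and lower genes scatter about 0 in KASUMI-1, where their median over all 164 names was −0.02.

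At the same time and dose the sensitive line KASUMI-1 had 408 genes at least 2-fold higher with LSD1i (3.7% of 11028) and 94 lower (0.852%). Of the genes higher in THP-1 at 72 h 86 were also higher there, 24.0% of the THP-1 genes and 21.1% of the KASUMI-1 genes, and 55 were higher in both lines at 72 h and in THP-1 at 24 h. Of the lower genes 4 were shared, 2.44% of the THP-1 genes and 4.26% of the KASUMI-1 genes. Those 4, named after their values were seen, were LGALS12, the potassium channel KCNK5, the phosphatase DUSP9 and the receptor RTN4R. Shared higher genes included CD86, with 14.5 CPM with LSD1i and 0.69 CPM with vehicle in KASUMI-1 at 72 h, and LYZ, with 413 with LSD1i and 36.9 CPM with vehicle. The S100 genes had log2 ratios in KASUMI-1 at 72 h of −0.12 for S100A8, −0.18 for S100A9 and 1.06 for S100A12. That of S100A12 came from 0.145 CPM with LSD1i and 0.0431 CPM with vehicle, with an interval of −1.29 to 7.28. VCAN had 0.22 there, from 0.460 CPM with LSD1i and 0.388 CPM with vehicle (−0.97 to 1.57), and CYBB 0.55 (0.04 to 1.10). KIT, which KASUMI-1 carries at a high level, had 582 CPM with LSD1i and 687 CPM with vehicle in that line at 72 h. Called in opposite directions in the lines were CD180, a Toll-like receptor homologue higher in THP-1 (1.23) and lower in KASUMI-1 (−1.23), and TP53INP2, PPP1R16B and AFF2, which were lower in THP-1 and higher in KASUMI-1. Differences between the lines at 72 h were not tested, and each line holds 1 library per agent at that time.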

How the data were processed

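RNA was extracted with Trizol from flash-frozen cells and TruSeq libraries were built on 500 ng of it, as the labels' protocols give it. The authors deposited whole-number counts per gene name for 8 libraries, made with featureCounts 1.5.2 on Ensembl 54 models of NCBI36, per the file headers. FastQC 0.10.0, TopHat2 2.0.10, Subread and edgeR and the build hg18 come from the submitters' processing notes. The header's command sets no option for strand or for reads that map to several places, so antisense or overlapping genes cannot be separated and close paralogs may be undercounted. The table held 33045 names, of which 9387 had no read. Of these names 19960 were matched to RefSeq symbols by name or synonym on the same chromosome, and 361 spanned more than 1 chromosome.

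For each pair, counts were scaled with TMM over all 8 libraries, and CPM with a prior count of 2 gave the log2 ratio. Its 95% interval is the exact binomial one given the summed reads. It covers counting error only, because no molecular identifiers were counted. A gene was called at 2-fold, with equality outside the interval and a mean of 2 CPM. Both THP-1 pairs were tested together by the quasi-likelihood F-test of edgeR 4.0.16 (R 4.3.3) after filterByExpr, on 16060 genes of all 8 libraries, with a term for each of 4 pairs and an LSD1i coefficient per line, which left 2 residual degrees of freedom and a common dispersion of 0.0115. The 72 h minus 24 h difference was fitted with separate THP-1 coefficients and 1 residual degree of freedom. P-values were adjusted by Benjamini-Hochberg at 0.05. DESeq2 1.42.0, RLE or total-count scaling, other filters, prior counts and folds, a fit without pair terms and leaving out each pair were the alternatives. Motifs and promoters came from RefSeq sequences.

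The 35 gene lists hold 1337 genes, of which 1303 matched. The lists, the genes and the comparison were chosen with earlier results of these data known. Genes named were a panel of 20 genes, the 12 highest and 12 lowest called ratios and the 6 highest and 6 lowest 72 h minus 24 h differences at a mean of 5 CPM, up to 6 called members of each list, and members under 2-fold needed to describe a list. Other names are said in the text to be chosen after their values were seen. Some members of the gene lists are counted in the totals and not reported here by name.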

Additional observations from a re-analysis of the deposited data

Results flagged for a closer look

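The response to the inhibitor differed between 72 h and 24 h in THP-1 by the test of the difference itself (edgeR's quasi-likelihood test, 1 residual degree of freedom) for 18 names with a current symbol, and those among them that the naming rule chose follow. The difference, as the 72 h minus the 24 h log2 response, was 4.64 for S100A12, 3.30 for S100A8, 3.14 for S100A9, 2.12 for SLC2A4, 2.03 for VCAN and 1.94 for LYZ. It was 1.81 for CYBB, 1.77 for IFI30, 1.41 for CLEC12A and 1.41 for HLA-DRA. The response was lower at 72 h by −2.12 for AXL, −1.69 for KIT, −1.66 for TIMP3 and −1.20 for MLC1. For AXL the ratio changed direction, with −1.14 at 72 h and 0.97 at 24 h, and for the others it kept its direction and was larger in size at 72 h. Only S100A12, S100A8, S100A9 and VCAN were also called with both RLE scaling and DESeq2. CYBB, IFI30 and TIMP3 were called with RLE scaling but not with DESeq2. The calls of SLC2A4, LYZ, CLEC12A, HLA-DRA, AXL, KIT and MLC1 ended under both.

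CTSZ and CFP were higher with LSD1i in both THP-1 pairs and slightly lower in both KASUMI-1 pairs. CTSZ, a cathepsin, had a log2 ratio of 1.35 in THP-1 at 72 h and 1.27 at 24 h, against −0.32 in KASUMI-1 at 72 h and −0.08 at 6 h. CFP, which encodes properdin, had 1.92 and 0.997 in THP-1 at 72 and 24 h, against −0.24 and −0.15 in KASUMI-1 at 72 and 6 h. The KASUMI-1 values are small and well short of 2-fold, and these differences between lines were not tested.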

How the results depend on the processing

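Under RLE scaling, total-count scaling and a prior count of 0.5 all 112 named genes kept the sign of their 72 h ratio. The count of genes at least 2-fold higher at 72 h, 358 as reported, was 194 at a mean of 10 CPM and 792 at 1.5-fold, and the 164 lower genes became 55 and 685, or 316 at a mean of 0.5 CPM. Between the vehicle libraries the 59 higher and 33 lower genes became 30 and 13 at a mean of 10 CPM. Over both THP-1 pairs the 1046 risen and 457 fallen genes became 381 and 73 without pair terms, and DESeq2 gave 741 and 249. Leaving out each pair in turn gave 347 to 1371 risen and 39 to 840 fallen genes, both lowest without the THP-1 72 h pair, and 459 and 169 without the THP-1 24 h pair. Of 99 named calls 23 ended without the THP-1 72 h pair, 5 without the 24 h pair, 20 without pair terms, 8 under DESeq2 and none under RLE scaling, without a filter or without either KASUMI-1 pair. The 18 higher and 6 lower differences between 72 h and 24 h became 10 and 1 with RLE scaling, and 7 and 0 with DESeq2, in which 32 were higher and 40 lower at an unadjusted p below 0.05, against 175 and 391 in edgeR. The cause of these shifts was not tested, except that leaving out a pair leaves fewer libraries. The pair terms join LSD1i and vehicle of the same line and time. Besides the 7 genes with that value in the results, the calls that ended without them were of GFI1, IRS2, ADGRG5, ITGB7, CCL23, IL10RA, C2, DDIT4, DUSP4, GPT2, PFKM, TNFSF10 and LAMA5. Depth was 23722972 reads or more, so vehicle levels of a few reads limit ratios such as that of FCRLA.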

Other observations

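Several called genes lay outside the gene lists, and those named here were chosen after their values were seen. ANXA2, an annexin that binds S100A10, had 842 CPM with LSD1i and 52.6 CPM with vehicle at 72 h, and 778 with LSD1i and 79.5 CPM with vehicle at 24 h. Its partner S100A10 had 59.5 CPM with LSD1i and 13.6 CPM with vehicle at 72 h, and 44.6 with LSD1i and 19.2 CPM with vehicle at 24 h. VIM, the intermediate filament vimentin, had 537 CPM with LSD1i and 65.8 CPM with vehicle at 72 h, and 484 with LSD1i and 69.8 CPM with vehicle at 24 h. For all 3 both LSD1i libraries lay above both vehicle libraries, and they rose over both pairs (ANXA2 by 3.65, VIM by 2.92 and S100A10 by 1.67 on the log2 scale). Among the S100A genes of chromosome 1, S100A4 had 1335 CPM with LSD1i and 620 CPM with vehicle at 72 h and was called, while S100A6 (537 with LSD1i and 302 CPM with vehicle) and S100A11 (394 with LSD1i and 240 CPM with vehicle) rose over both pairs without reaching 2-fold at 72 h. S100A3 overlaps S100A4 on the same strand, so strand could not have separated their reads.

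NLRC4, an inflammasome protein, had 27.6 CPM with LSD1i and 2.41 CPM with vehicle at 72 h, NAIP, which senses flagellin for it, had 22.7 with LSD1i and 7.32 CPM with vehicle, and NLRP12 had 13.1 with LSD1i and 4.03 CPM with vehicle. MPEG1, the pore-forming perforin-2 of macrophages, had 42.9 CPM with LSD1i and 4.35 CPM with vehicle, and the lysosomal nuclease DNASE2 had 86.4 with LSD1i and 18.3 CPM with vehicle. GPR65, a proton-sensing receptor, had 25.3 CPM with LSD1i and 2.1 CPM with vehicle at 72 h, and 27.5 with LSD1i and 2.17 CPM with vehicle at 24 h. At the lower end the proteoglycan SDC2 had 64.2 CPM with LSD1i and 160 CPM with vehicle, the basement membrane protein NID1 34.1 with LSD1i and 77.4 CPM with vehicle, and AGRN 8.23 with LSD1i and 20.4 CPM with vehicle. WNT7B, a secreted Wnt ligand, had 3.38 CPM with LSD1i and 11.9 CPM with vehicle, its co-receptor LRP5 8.46 with LSD1i and 20.9 CPM with vehicle, and the Notch ligand JAG2 3.15 with LSD1i and 10.6 CPM with vehicle. TERT, the catalytic subunit of telomerase, had 1.73 CPM with LSD1i and 5.82 CPM with vehicle at 72 h and 2.26 with LSD1i and 4.94 CPM with vehicle at 24 h, and fell by 1.41 ± 0.24 over both pairs.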
